A study of Mus musculus with 10 samples.

Results

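T cells, natural killer (NK) cells and innate lymphoid cells are the lymphocytes that act within inflamed skin, and 35 genes that mark them or carry their functions were followed here in whole ear skin. The members are a list of gene symbols. All 35 were matched to an Ensembl gene among the 41388 genes in each deposited table. T cells recognise antigen through a receptor of 2 variable chains that signals through the CD3 chains, while NK and innate lymphoid cells carry no such receptor and respond to cytokines and stress ligands. In skin under MC903 (calipotriol, a vitamin D analogue), keratinocytes release cytokines that recruit and activate type 2 lymphocytes, and regulatory T cells restrain that response.

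RNA of whole ear skin from 10 mice of strain C57Bl/6 was sequenced, 1 library per mouse, in 6 Experimental and 4 Littermate libraries. The Experimental mice carry the genotype label NaV1.8+ Jak1F/F, whereas the series text describes them as NaV1.8+ Il4raF/F. The floxed gene is therefore not settled here, and the group is called Experimental. Littermates carry the genotype label WT. Both groups received MC903, for which the series text gives, where it names the littermates, 1 nM applied to the skin daily for 12 days, so the treatment is shared and no untreated skin was analysed here. NaV1.8 is a sodium channel found in sensory neurons of pain and itch, whose cell bodies lie outside the ear, and no label names a change in lymphocytes themselves. Neither age nor sex is stated in the labels. Because this is bulk tissue, fewer cells of a type and less RNA per cell cannot be told apart.

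Total counts ran from 11520348 to 41935183 in Experimental libraries and from 12865459 to 14324433 in Littermate libraries, so that 3 counts were worth 0.0715 to 0.260 counts per 1e+06 counts (CPM). Of 16830 genes with enough counts to be tested, 3 differed between the groups at an adjusted p of 0.05 (edgeR quasi-likelihood test, Benjamini-Hochberg adjustment), which is 0.0178% of them. CPM values below are normalised by TMM factors. Fold changes are Experimental over Littermate on the log2 scale.

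No member passed the test between the groups. Of the 35 members, 29 had enough counts for the test and 0 of these passed, against 0.0178% of all tested genes, 0.00594% higher and 0.0119% lower (edgeR, adjusted p from 0.26 to 0.991 over the 29). At an unadjusted p under 0.05 there were 2, Cd2 on the higher side and Cd4 on the lower side, against a background of 11.8% of all tested genes, 3.65% higher and 8.1% lower. DESeq2 and limma voom likewise called 0 members. Of the 29, DESeq2 gave Trac, Cd8a, Themis, Klrg1 and Klrd1 no adjusted p, so these could not be called there. The 6 members with too few counts for the edgeR test have lower total counts than these. Whether DESeq2 gave those an adjusted p was not recorded, so its 0 is not shown to cover them. In no member were the 2 groups of libraries apart without overlap, against 2.12% of all tested genes, 0.761% higher and 1.35% lower. Fold changes were positive for 24 of the 29 tested members and negative for 5, with a median of 0.15, whereas 49.6% of all tested genes were positive and their median was -0.001. Without Littermate 2 the count was 22 of 31 tested members, and the median over the 29 of the main fit was 0.10. Without Littermate 2 and Experimental 6 the values were 19 of 29 and 0.06, and with the replicate block 20 of 29 and 0.12. Experimental 5 and 6 have no Littermate of their number, so in that block they add nothing to the group contrast. These members share the same cells and libraries and so are not independent of each other. The 95% interval lay within a 2-fold change either way for 26 members, and the upper bound passed 2-fold for Trac, Cd8a and Gzmb.

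**Figure D1:**
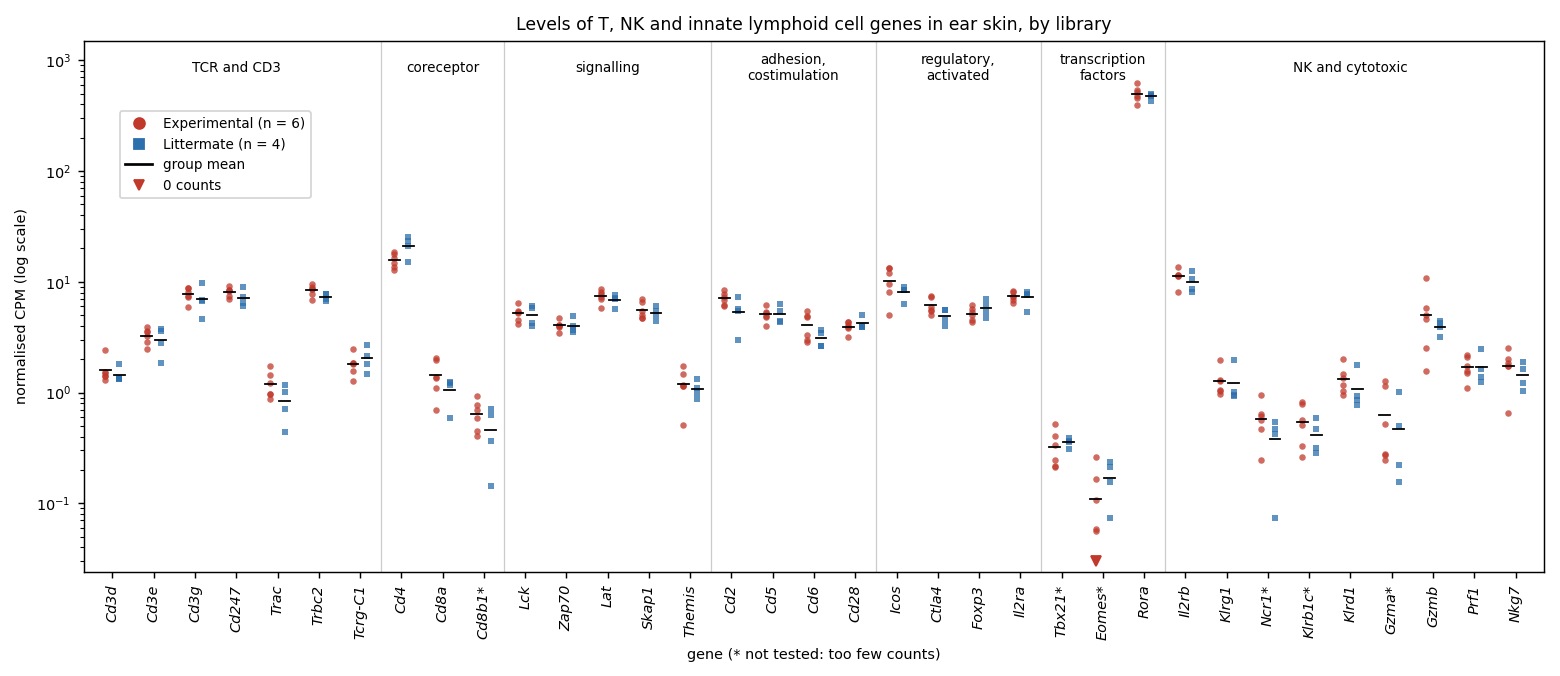
Normalised CPM (log scale) of the 35 genes in each library, grouped by role, with 6 Experimental libraries as circles to the left of 4 Littermate libraries as squares and bars at the group means; the triangle marks a library with 0 counts. The libraries of both groups overlap for every gene, and Rora lies far above the other 34.

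Per kilobase of exon, Rora had the highest level at 37.4 normalised CPM per kilobase over all 10 libraries. It was followed by Trbc2 at 15.3, Cd3g at 6.93, Lat at 5.81, Cd4 at 4.41 and Il2rb at 3.84. At the low end stood Eomes at 0.0320, Themis at 0.127 and Tbx21 at 0.135 normalised CPM per kilobase. Transcripts of T cells were thus detected in every library: each of Cd3d, Cd3e, Cd3g, Trac and Trbc2 had at least 6 counts in all 10. The NK receptor genes Ncr1 and Klrb1c were near the limit of detection, with 1 to 27 and 3 to 33 counts per library.

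The first group by role is the antigen receptor itself. Trac and Trbc2 encode the constant regions of the alpha and beta chains, Tcrg-C1 a constant region of the gamma chain carried by epidermal gamma-delta T cells, and Cd3d, Cd3e, Cd3g and Cd247 the signalling chains. Trbc2 (mm10, chromosome 6, 41546730 to 41548181, plus strand) has a near copy beside it, Trbc1 (chromosome 6, 41538218 to 41539347, plus strand). Over the 521 coding bases of their constant-region transcripts in GENCODE M21 the pair differ at 23 positions. The first 259 bases are identical, so a 50-base read from there cannot be assigned to either gene. Of all 50-base windows of Trbc2 transcripts, 44.0% also occur in another gene. The differences cluster at the 3′ end, and the last 120 coding bases are shown because they hold 19 of them, with the differing bases in capitals.
Trbc2: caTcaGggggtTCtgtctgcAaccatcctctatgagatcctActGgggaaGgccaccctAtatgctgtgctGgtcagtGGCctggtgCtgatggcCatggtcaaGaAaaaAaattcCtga
Trbc1: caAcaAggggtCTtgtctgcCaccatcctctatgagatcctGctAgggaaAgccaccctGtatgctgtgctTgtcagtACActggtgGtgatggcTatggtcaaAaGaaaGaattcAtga
No source used here says how reads that match both were counted, so the level of Trbc2 is uncertain against that of Trbc1. Tcrg-C1 is in the same position, since 34.2% of its windows occur in Tcrg-C2 or Tcrg-C3.

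Trbc2 ran from 6.84 to 9.61 CPM in Experimental libraries, with a median of 8.60, against 6.65, 7.77, 7.82 and 6.94 CPM in Littermates 1 to 4. In 4 of 6 Experimental libraries it lay above all Littermates, and the fold change of 0.20 (SE 0.12) did not pass (edgeR, adjusted p = 0.542). Trac, a shorter and less covered gene, ran from 0.883 to 1.74 CPM (median 1.10) in Experimental libraries, against 1.17, 0.440, 0.711 and 1.01 CPM in Littermates 1 to 4. The low value is Littermate 2, with 6 counts, and without it the fold change was 0.29. All 6 Experimental libraries lay above the Littermate median, at a fold change of 0.50, its 95% interval spanning -0.15 to 1.15 (edgeR, adjusted p = 0.552).

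Of the CD3 chains, Cd3e averaged 3.27 ± 0.538 CPM (SD, n = 6) in Experimental libraries and 2.99 ± 0.881 CPM (SD, n = 4) in Littermates. Its Littermate values were 3.76, 1.83, 2.77 and 3.58 CPM and its Experimental values ran from 2.45 to 3.92 CPM with a median of 3.38. The 2 groups overlapped, and the positive sign of its fold change of 0.16 (edgeR, adjusted p = 0.801) rested on Littermate 2, without which it was -0.01. Cd3d, Cd3g and Cd247 had fold changes of 0.15, 0.15 and 0.18. Single libraries moved these: Cd3d was 0.01 without Experimental 1, Cd3g was 0.008 without Littermate 4 and 0.35 without Littermate 2, and Cd247 was 0.30 without Littermate 2. The value for Cd247 is uncertain, since 56.4% of its exonic length overlaps a gene on the opposite strand and no strand marking is described. Tcrg-C1 ran from 1.28 to 2.46 CPM (median 1.81) in Experimental libraries, against 1.80, 2.71, 2.13 and 1.48 CPM in Littermates. It was one of the 5 members with a negative fold change, at -0.15 and a 95% interval of -0.62 to 0.32 (edgeR, adjusted p = 0.843), and stood at 0.03 without Littermate 2. Summed over the 7 receptor genes, the level was 30.7 to 33.2 CPM in Experimental libraries and 25.4 to 32.7 CPM in Littermates.

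The tested coreceptors had fold changes of opposite sign. Cd4, which binds MHC class II and marks helper and regulatory T cells, had the lowest p of all members. It ran from 12.7 to 18.7 CPM (median 15.5) in Experimental libraries, against 20.9, 23.2, 14.9 and 25.2 CPM in Littermates 1 to 4. All 6 Experimental libraries lay below the Littermate median and 3 lay below every Littermate, while Littermate 3 sat within the Experimental range. The fold change was -0.43 with an interval from -0.73 to -0.12, an unadjusted p of 0.00983 and an adjusted p of 0.26 in edgeR. It was negative in all 21 alternative fits, which share most of their libraries, from -0.56 to -0.27, with adjusted p from 0.135 to 0.926. The weakest value, -0.27 (edgeR, unadjusted p = 0.134, adjusted p = 0.926), came with the Y-linked level as covariate. In that fit 5.82% of all tested genes had an unadjusted p under 0.05, against 11.8% without the covariate. The Y-linked level of each library is not given here, so the balance of sexes between the groups is not shown. In mice Cd4 is also carried by some dendritic cells and macrophages. The summed level of 9 macrophage markers, all detected, was 1585 to 2391 CPM in Experimental libraries and 2182 to 2553 CPM in Littermates. Lyz2 was the only one past the threshold, on the lower side. Of the 9 fold changes 7 were negative and 2 positive, with a median of -0.20. The summed level of 8 dendritic and Langerhans cell markers, all detected, was 122.5 to 140.5 CPM in Experimental libraries and 128 to 152 CPM in Littermates. The part of these cells in the Cd4 level was not tested.

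Cd8a, the coreceptor of cytotoxic T cells, ran from 0.699 to 2.04 CPM (median 1.38) in Experimental libraries, against 1.25, 0.586, 1.21 and 1.17 CPM in Littermates 1 to 4. Of the Experimental libraries 4 lay above every Littermate and Experimental 5 lay among the lowest. With 8 to 57 counts per library the interval was wide, from -0.21 to 1.08 around a fold change of 0.44 (edgeR, adjusted p = 0.602), which was 0.24 without Littermate 2. Its partner chain Cd8b1, with 2 to 32 counts, was not tested and averaged 0.641 ± 0.198 CPM (SD, n = 6) in Experimental libraries and 0.459 ± 0.256 CPM (SD, n = 4) in Littermates.

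**Figure D2:**
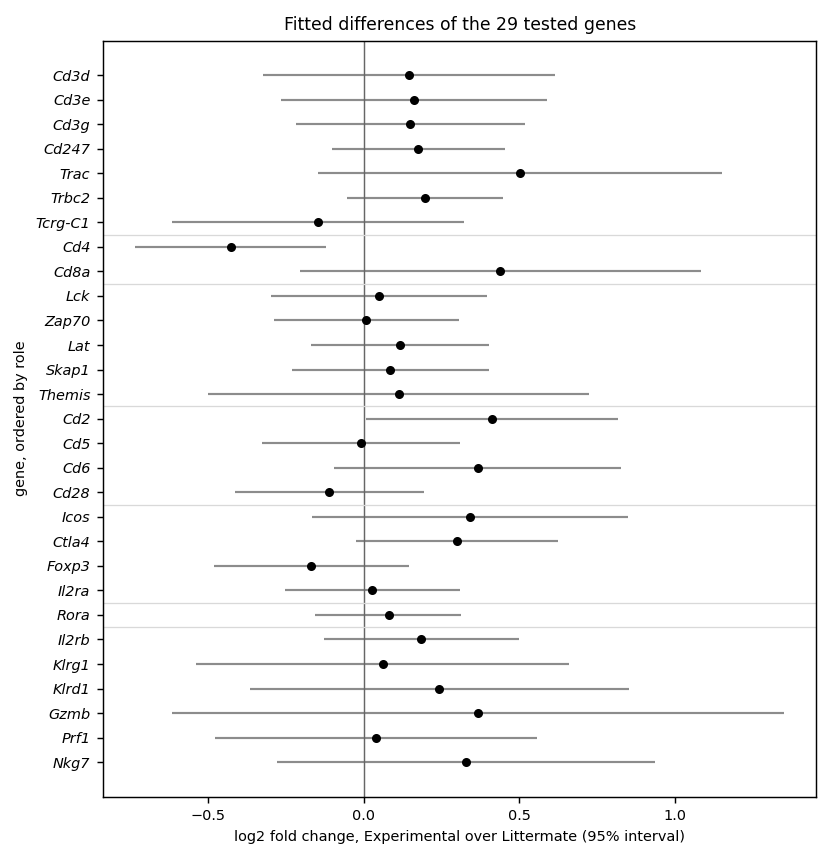
Log2 fold change of Experimental over Littermate with its 95% interval (edgeR) for the 29 tested genes, ordered by role from top to bottom. The interval of every gene but Cd4, which lies below 0, and Cd2, which lies just above 0, includes 0, and neither of these passed after adjustment.

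Signalling proteins next to the receptor form the next group. Lck, the kinase that starts receptor signalling, Zap70, the kinase that binds the phosphorylated CD3 chains, the adaptors Lat and Skap1, and Themis, a regulator of receptor signalling in thymocytes, had fold changes from 0.01 to 0.12. With 1 library left out, Lat ranged from 0.03 to 0.20, Skap1 from 0.02 to 0.17 and Themis from 0.01 to 0.26. Lck averaged 5.19 ± 0.790 CPM (SD, n = 6) in Experimental libraries and 4.999 ± 1.07 CPM (SD, n = 4) in Littermates. Zap70 averaged 4.04 ± 0.397 CPM (SD, n = 6) in Experimental libraries and 4.02 ± 0.619 CPM (SD, n = 4) in Littermates, with an interval of its fold change from -0.29 to 0.31.

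Among adhesion and costimulatory receptors, Cd2 had the lowest p of the members with a positive fold change. Cd2, an adhesion receptor of T and NK cells, ran from 6.04 to 8.48 CPM (median 7.05) in Experimental libraries, against 5.63, 3.01, 5.40 and 7.25 CPM in Littermates 1 to 4. All 6 Experimental libraries lay above the Littermate median and 3 above every Littermate. The fold change of 0.41 had an interval from 0.01 to 0.82, an unadjusted p of 0.0462 and an adjusted p of 0.413 in edgeR, and it was 0.22 without Littermate 2, the lowest library. Cd6, a receptor at the T cell contact zone, ran from 2.86 to 5.49 CPM (median 4.07) in Experimental libraries, against 3.68, 2.64, 3.48 and 2.65 CPM in Littermates. Experimental 1, 5 and 6 lay above every Littermate and the other 3 within the Littermate range, at a fold change of 0.37 (edgeR, adjusted p = 0.538).

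Cd5 is an inhibitory receptor related to Cd6 and its neighbour on chromosome 19, and whether their fold changes differ was not tested. Cd5 ran from 4.00 to 6.21 CPM (median 5.06) in Experimental libraries, against 5.40, 4.32, 4.41 and 6.31 CPM in Littermates, a fold change of -0.01 (edgeR, adjusted p = 0.991). Cd28, the main costimulatory receptor, ran from 3.15 to 4.37 CPM (median 3.99) in Experimental libraries, against 3.99, 5.06, 3.91 and 3.90 CPM in Littermates. Its groups overlapped, and the fold change of -0.11 was -0.01 without Littermate 2.

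The markers of regulatory and activated T cells did not point one way. Foxp3, the transcription factor that defines regulatory T cells, ran from 4.37 to 6.16 CPM (median 5.17) in Experimental libraries, against 5.32, 4.69, 6.19 and 7.01 CPM in Littermates 1 to 4. Only Experimental 2 lay above the Littermate median, and the fold change of -0.17 had a 95% interval of -0.48 to 0.15 (edgeR, adjusted p = 0.697). It was -0.05 without Littermate 4 and -0.26 without Littermate 2. Of its 50-base windows 23.1% occur in overlapping genes, the Flicr transcript on the same strand among them. Ctla4, the inhibitory receptor that regulatory T cells carry at high level, ran from 5.04 to 7.43 CPM (median 5.76) in Experimental libraries, against 3.99, 4.54, 5.55 and 5.53 CPM in Littermates. In 4 Experimental libraries it lay above every Littermate, though in Experimental 1 only just, with a fold change of 0.30 (edgeR, adjusted p = 0.469). Icos, a costimulatory receptor induced on activation, was spread most among these, from 5.06 to 13.4 CPM in Experimental libraries and from 6.30 to 8.997 CPM in Littermates. Experimental 4 was the lowest of all 10 libraries for Icos and Experimental 6 the highest. Il2ra, the high-affinity chain of the IL-2 receptor, averaged 7.38 ± 0.722 CPM (SD, n = 6) in Experimental libraries and 7.24 ± 1.27 CPM (SD, n = 4) in Littermates.

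Of the transcription factors, Rora, a nuclear receptor needed for group 2 innate lymphoid cells and also active in many cells outside the lymphocytes, ran from 391.6 to 620 CPM in Experimental libraries and from 424 to 499 CPM in Littermates. Its fold change was 0.08, the interval reaching -0.16 and 0.31 (edgeR, adjusted p = 0.826), and 0.02 without Experimental 3. Its level is far from the scale of the other members, the next of which by CPM was Cd4. Tbx21 (T-bet) and Eomes, which direct type 1 and cytotoxic lymphocytes, had 3 to 9 and 0 to 7 counts per library and were not tested. Tbx21 averaged 0.324 ± 0.124 CPM (SD, n = 6) in Experimental libraries and 0.356 ± 0.0332 CPM (SD, n = 4) in Littermates.

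NK and cytotoxic genes were mostly low. Il2rb, the IL-2 and IL-15 receptor chain of NK and memory T cells, was the most abundant by CPM at 11.2 ± 1.75 CPM (SD, n = 6) in Experimental libraries and 9.91 ± 2.02 CPM (SD, n = 4) in Littermates, a fold change of 0.19 (edgeR, adjusted p = 0.663) that was 0.10 without Littermate 2 and 0.33 without Littermate 4. Gzmb, a granzyme of cytotoxic granules that mouse mast cells can also make, had the widest interval of the tested members, from -0.62 to 1.35. It stood at 1.55 to 10.9 CPM (median 4.82) in Experimental libraries, against 4.38, 3.15, 3.91 and 4.21 CPM in Littermates. Both the highest library, Experimental 6, and the 2 lowest, Experimental 3 and 4, were Experimental. Its fold change of 0.37 (edgeR, adjusted p = 0.798) was 0.01 without Experimental 6. The summed level of 5 basophil markers was also highest in that library, at 85.9 CPM, against 43.7 to 58.5 CPM in the other Experimental libraries and 64.8 to 79.2 CPM in Littermates, and that of 7 mast cell markers was 483 CPM there, against 366 to 435 CPM in the other Experimental libraries and 428.5 to 506 CPM in Littermates. Experimental 6 was also the highest Experimental library for macrophage markers, at 2391 CPM, and for 6 neutrophil markers, at 542.5 CPM. It was not the highest for dendritic and Langerhans cell, B and plasma cell, keratinocyte or skeletal muscle markers. The part of any of these cells in the Gzmb level was not tested.

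Nkg7, a granule membrane protein, ran from 0.653 to 2.50 CPM (median 1.80) in Experimental libraries, against 1.64, 1.03, 1.21 and 1.87 CPM in Littermates. Experimental 4 was the lowest and Experimental 6 the highest of all libraries, and the fold change of 0.33 did not pass (edgeR, adjusted p = 0.696), being 0.20 without Littermate 2. The pore-forming protein Prf1 averaged 1.69 ± 0.394 CPM (SD, n = 6) in Experimental libraries and 1.69 ± 0.555 CPM (SD, n = 4) in Littermates. The receptors Klrd1 and Klrg1, found on NK cells and on subsets of T and innate lymphoid cells, had fold changes of 0.24 and 0.06 with standard errors of 0.29 and 0.28. Klrd1 was 0.58 without Littermate 2 and 0.13 without Experimental 5, and Klrg1 was 0.39 without Littermate 1 and -0.09 without Experimental 1.

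Ncr1, the NK receptor NKp46, ran from 0.245 to 0.953 CPM (median 0.590) in Experimental libraries, against 0.548, 0.0733, 0.427 and 0.468 CPM in Littermates. In 4 of 6 Experimental libraries it lay above every Littermate, but Littermate 2 had 1 count and Experimental 4 had 3, and the gene did not reach the filter for the test. Klrb1c (NK1.1) averaged 0.544 ± 0.229 CPM (SD, n = 6) in Experimental libraries and 0.413 ± 0.141 CPM (SD, n = 4) in Littermates. Its level is uncertain, since 17% of its 50-base windows occur in other genes. Among these is Klrb1b, which averaged 11.2 CPM in Experimental libraries and 9.03 CPM in Littermates. Gzma was uneven in both groups, at 1.15 and 1.28 CPM in Experimental 3 and 6 and 0.245 to 0.524 CPM in the other Experimental libraries, against 1.02, 0.220, 0.498 and 0.156 CPM in Littermates. Without the filter on low counts, the 6 members left untested had fold changes from -0.54 (Eomes) to 0.67 (Ncr1), and the lowest adjusted p among them was 0.643 (Ncr1, edgeR).

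**Figure D3:**
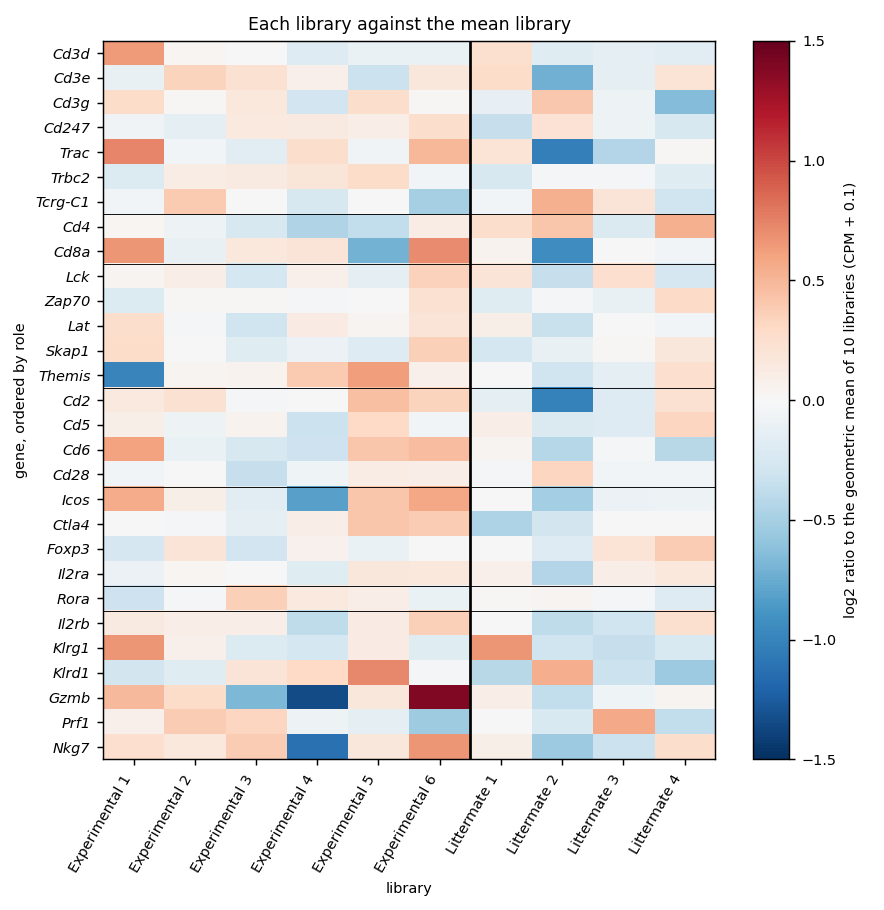
Log2 ratio of each library to the geometric mean of all 10 libraries (CPM + 0.1) for the 29 tested genes in rows, with 6 Experimental libraries left and 4 Littermate libraries right of the line. Littermate 2 is low for many genes but high for Tcrg-C1, Cd3g, Cd4, Cd28 and Klrd1, and no column is high or low for all genes.

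The highest and lowest values of the members did not all lie in the same libraries. How far the members vary together was not measured. For members with few counts, such as Trac with 6 in Littermate 2, counting error alone can move such ranks. Experimental 6 held the highest value for 8 of the 29 tested members, Experimental 5 for 6 and Experimental 1 for 5. The lowest values lay most often in Littermate 2, with 9 members, and in Experimental 4, with 6. Littermate 2 stood at a median log2 ratio of -0.28 to the mean library over the tested members, but it also held the highest Cd3g, Tcrg-C1 and Cd28 of all 10 libraries. Experimental 6 stood at 0.17 and Experimental 4 at -0.07. The deepest libraries, Experimental 2 and 3, stood at 0.03 and 0.00.

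Ratios between members within a library, taken per kilobase, compare transcript levels and were not tested. In bulk skin they do not measure the balance of cell subsets, since Cd4 is also carried by other cells and Tcrg-C1 shares windows with other genes. Cd4 over Cd3e was 1.38 to 2.21 (median 1.70) in Experimental libraries and 1.92 to 4.52 (median 2.24) in Littermates, with the highest value in Littermate 2, where Cd3e was lowest. Cd3g was highest in that same library, so ratios to Cd3e depend on the CD3 chain chosen. Cd4 over Cd8a was 7.01 to 14.9 (median 7.73) in Experimental libraries and 9.59 to 30.8 (median 14.8) in Littermates. Foxp3 over Cd3e was 0.433 to 0.733 (median 0.565) in Experimental libraries and 0.510 to 0.922 (median 0.754) in Littermates. Other ratios to Cd3e had the higher median in Experimental libraries. Ctla4 over Cd3e was 0.856 to 1.87 (median 1.16) there and 0.655 to 1.53 (median 1.09) in Littermates. Cd8a over Cd3e was 0.130 to 0.315 (median 0.184) in Experimental libraries and 0.147 to 0.200 (median 0.151) in Littermates. Tcrg-C1 over Trac was 0.702 to 2.02 in Experimental libraries and 1.17 to 4.92 in Littermates. The ranges of the groups overlapped for each of these ratios, and those that rest on Cd8a or Trac carry the error of small counts.

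**Figure D4:**
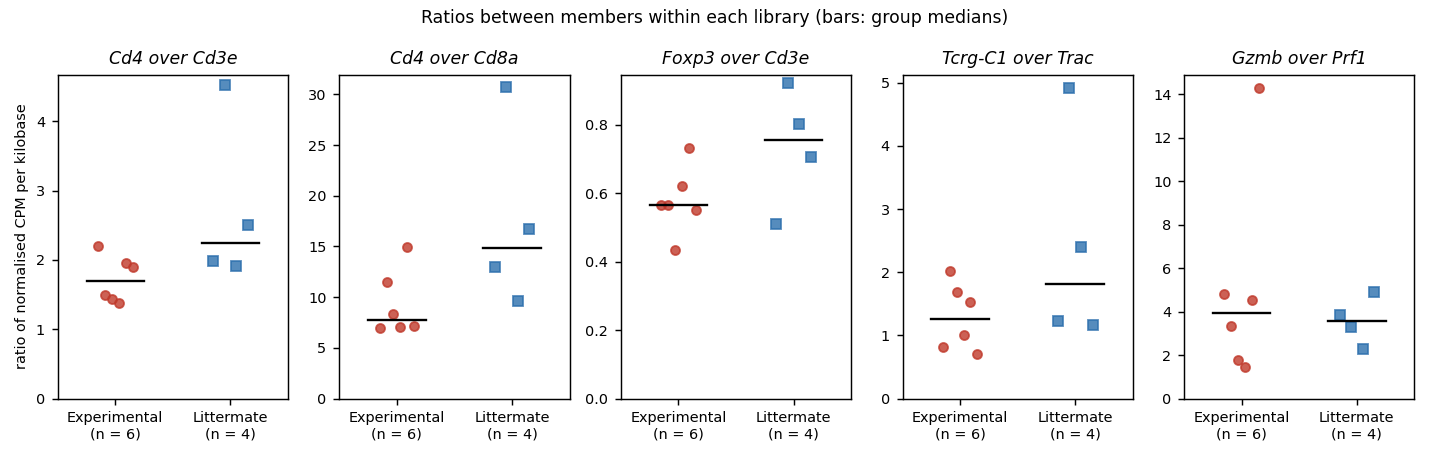
Ratios of normalised CPM per kilobase between pairs of members within each library, with Experimental libraries (n = 6, circles) left and Littermate libraries (n = 4, squares) right and bars at the group medians. The 2 groups overlap in every panel, and Littermate 2 is the highest point in the first 4.

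Further genes of the same pathways were read from 6 lists with 90 entries, of which 88 were matched and 68 tested. None passed (edgeR, adjusted p from 0.0834 to 0.999). At an unadjusted p under 0.05 there were 7, which is 10.3% against 11.8% of all tested genes, and DESeq2 called 3 while limma voom called 0. Their median fold change was 0.01, with 34 positive and 34 negative. The groups did not overlap in 5 of the 68, which is 7.35% against 2.12% of all tested genes. The lists were chosen with earlier results of these data known, so the 2 shares are not an independent comparison.

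Among 13 checkpoint and TNF receptor family genes, 10 had positive fold changes. Lrrc32 (GARP), which holds latent TGF-beta on activated regulatory T cells and is also found on endothelium and platelets, had the lowest p. It stood at 15.5 ± 2.01 CPM (SD, n = 6) in Experimental libraries and 25.4 ± 6.28 CPM (SD, n = 4) in Littermates, with all 6 Experimental libraries below every Littermate. Its fold change of -0.71 (SE 0.14) did not pass (edgeR, adjusted p = 0.0834), and DESeq2, edgeR without the filter, voom with quality weights, edgeR without Littermate 2, and edgeR without Littermate 2 and Experimental 6 did call it. Tnfrsf4 (OX40), a costimulatory receptor of activated and regulatory T cells, stood at 10.8 ± 0.81 CPM (SD, n = 6) in Experimental libraries and 7.90 ± 1.10 CPM (SD, n = 4) in Littermates. All 6 Experimental libraries lay above every Littermate, at a fold change of 0.46 (edgeR, adjusted p = 0.121).

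Of 16 genes of helper cells and tissue residence, 6 had positive fold changes. Ccr7, the receptor for homing to lymph nodes on T cells and migrating dendritic cells, stood at 5.58 ± 1.24 CPM (SD, n = 6) in Experimental libraries and 3.499 ± 0.439 CPM (SD, n = 4) in Littermates, again without overlap (fold change 0.66, edgeR, adjusted p = 0.162). Klf2, a factor of circulating T cells and of endothelium, stood at -0.56 (edgeR, adjusted p = 0.26). Ccr10, named after its values were seen because its groups did not overlap, stood at -0.42 (edgeR, adjusted p = 0.315).

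Among 15 matched genes of further NK and cytotoxic functions, 8 were tested and 3 were positive. Klrk1 (NKG2D), an activating receptor of NK and cytotoxic T cells, stood at 5.71 ± 0.623 CPM (SD, n = 6) in Experimental libraries and 4.21 ± 0.296 CPM (SD, n = 4) in Littermates, with all 6 Experimental libraries above every Littermate (fold change 0.44, edgeR, adjusted p = 0.20). Klrb1b, an inhibitory lectin receptor, stood at 0.31. Of 22 further receptor-signalling genes 11 were positive, with the transcription factors Ikzf1 at -0.19 and Tcf7 at -0.21 lowest in p. Of 7 matched receptor segments 3 were tested, all between -0.06 and 0.16, with Trbc1 at 0.16 and Trdv4, a variable segment of epidermal gamma-delta T cells, at -0.06.

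Of 15 lymphocyte cytokine genes 6 could be tested. Il4, the cytokine of type 2 helper cells and basophils, ran from 1.11 to 6.98 CPM (median 1.22) in Experimental libraries and from 0.924 to 1.79 CPM in Littermates (median 1.14). Only 1 Experimental library, the one at 6.98 CPM, lay above every Littermate. Its fold change of 0.77 had a 95% interval of -0.70 to 2.24 (edgeR, adjusted p = 0.699). Il10, an inhibitory cytokine of regulatory T cells and myeloid cells, stood at -0.31 (edgeR, adjusted p = 0.702).

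**Figure D5:**
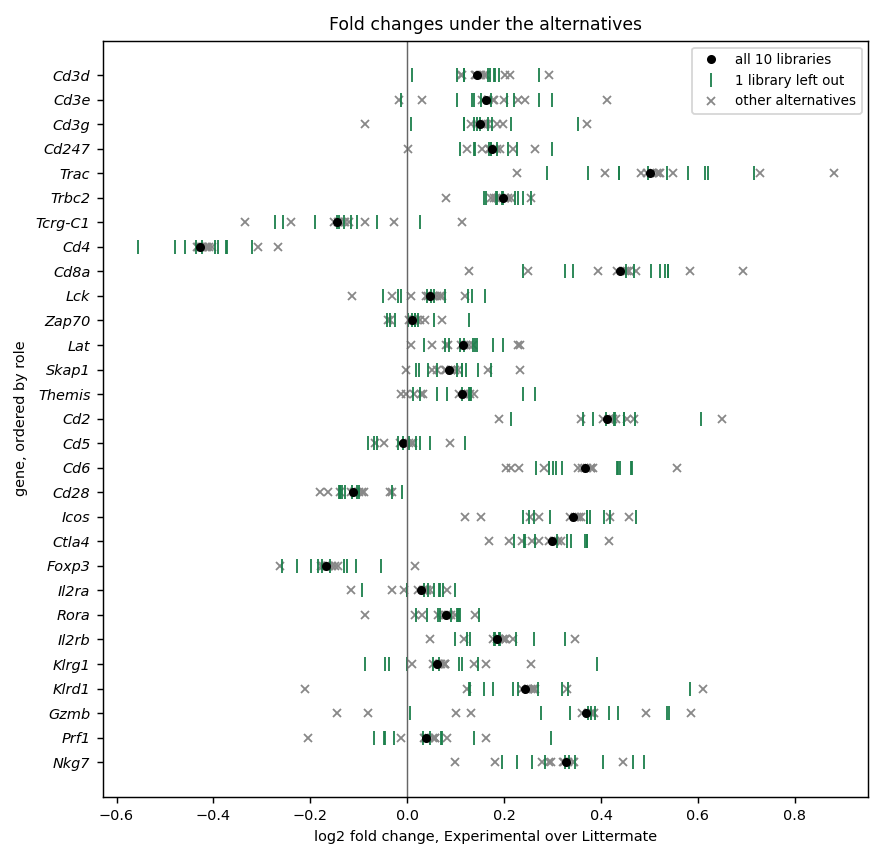
Log2 fold change of Experimental over Littermate for the 29 tested genes with all 10 libraries (dots), with 1 library left out (ticks) and under the other alternatives (crosses). Cd4 stays below 0 and Cd2, Trac, Cd8a, Cd6, Icos and Ctla4 stay above 0 in all 21 alternatives, none of which passed after adjustment.

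The fold changes were set against their alternatives in the plot of all 21 settings. Of 29 tested members 14 kept the sign of their fold change in all 21, among them Cd4 and, on the higher side, Cd2, Trac, Trbc2, Cd8a, Cd6, Icos, Ctla4, Il2rb and Nkg7. The other 15 changed sign in at least 1 alternative, the largest fold change among them being that of Gzmb. The summed level of 7 B and plasma cell markers, lymphocytes outside the members, was 2.97 to 8.29 CPM in Experimental libraries and 1.61 to 9.12 CPM in Littermates. Lat is also made by mast cells, whose marker levels are given with Gzmb, and their part in the Lat level was not tested.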

How the data were processed

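Per the labels' protocols, RNA of whole ear skin was depleted of ribosomal RNA, reverse transcribed from random hexamers and sequenced as single reads of 50 bases; no strand marking is described. The submitters' processing notes name the build mm10 and, as tools, featureCounts 1.4.5, Subread and STAR 2.0.4b. No source used here states the annotation release, strand setting or handling of multiply matching reads. Per the file headers, the authors deposited a read count, a CPM and an RPKM per gene and library. The deposited CPM equals the count over the library total, and the deposited RPKM equals that CPM per kilobase; both were checked and only the counts entered the tests. Symbols were matched to 97.3% of gene identifiers.

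Counts were tested with edgeR 4.0.16 (R 4.3.3): TMM factors (0.984 to 1.02), filterByExpr by group (about 0.715 CPM in 4 libraries), robust quasi-likelihood fit of group alone over the 10 libraries, two-sided, adjusted by Benjamini-Hochberg over 16830 genes at 0.05. SE is the fold change over the square root of F. Errors are SD over libraries. The series text counts 6 and 4 mice; no litter, cage or batch is named, so p-values measure only the spread between these libraries. Alternatives were other size factors and filters, a replicate block, a covariate from the Y-linked level, libraries left out, voom (limma 3.58.1) and DESeq2 1.42.0. Steps were tested on simulated counts.

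The members and lists were chosen with earlier results of these data known. All 35 members are named; each Littermate value, with the lowest, median and highest Experimental value, is given for the 5 with the lowest p on each side and for Cd3e, Cd8a, Ncr1, Gzmb and Nkg7 (Gzma was added after its values were seen). From each list of further pathway genes the 2 with the lowest p are named, and from marker lists only genes that passed. Shared windows are 50-base stretches of GENCODE M21 transcripts found in another gene.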

Additional observations from a re-analysis of the deposited data

Results flagged for a closer look

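Single libraries stood apart from the rest of their group in 8 of 58 sets of libraries (29 tested members in each of 2 groups), judged by the gap to the nearest library over the whole range of the group; chance gives about 1 in 20. Of these, 2 were in Experimental and 6 in Littermate libraries. Experimental 1 was the highest of its group for Cd3d, at 2.41 CPM with the next library at 1.54, and for Klrg1, at 1.96 CPM with the next at 1.31. Littermate 1 was the highest of its group for the same 2 genes, at 1.80 CPM for Cd3d with the next at 1.35, and at 1.96 CPM for Klrg1 with the next at 1.01. Littermate 2 stood low for Cd8a, at 0.586 CPM with the next at 1.17, and for Il2ra, at 5.35 CPM with the next at 7.67. The same library stood high for Cd28, at 5.06 CPM with the next at 3.99, and for Klrd1, at 1.76 CPM with the next at 0.924.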

How the results depend on the processing

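No member passed in any of the 21 alternatives, in which 29 to 35 members were given a p. DESeq2 gave Trac, Cd8a, Themis, Klrg1 and Klrd1 a p but no adjusted p, so its count of 0 does not cover them. Nor is it shown to cover the 6 members left untested by edgeR, whose total counts are lower still. Over all tested genes the count of 3 became 78 with no filter on low counts, 67 with the replicate block, 231 with DESeq2, 60 with voom and quality weights and 563 without Littermate 2 and Experimental 6. With 1 library left out it ran from 3 to 343, the highest without Littermate 2, and it was 28 without Experimental 6 and 8 without Littermate 3. Of the pathway genes, 1 passed with no filter (Lrrc32), 1 with voom and quality weights (Lrrc32), 3 with DESeq2 (Ccr7, Lrrc32 and Tnfrsf4) and 3 without Littermate 2 and Experimental 6 (Gata3, Il18rap and Lrrc32). With 1 library left out 0 to 2 passed, the 2 being Gata3 and Lrrc32 without Littermate 2. Gata3 and Il18rap are named after their values were seen.

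The replicate numbers gave no sign of pairing: same-numbered libraries deviated from their group means with correlations of 0.036, -0.024, 0.109 and -0.027 for numbers 1 to 4, and not every library correlated best with its own number. In a replicate block Experimental 5 and 6 have no Littermate of their number, so they add nothing to the group contrast. Under that block the fold changes of Zap70, Themis, Il2ra and Gzmb turned to -0.035, -0.013, -0.031 and -0.144. Of 609 member values in alternatives, 48 had the other sign, none of them called, and the cause was not tested. With library totals only Cd5 was 0.009, and with no filter 0.004. With the Y-linked level as covariate Cd3g was -0.088, Cd5 0.089, Foxp3 0.016, Rora -0.088, Klrd1 -0.212 and Prf1 -0.013. With voom and quality weights Lck was -0.032, Themis -0.003, Cd5 0.011 and Il2ra -0.006. Without Littermate 2 and Experimental 6 Cd3e was -0.018, Tcrg-C1 0.112, Lck -0.115, Zap70 -0.039, Skap1 -0.003, Il2ra -0.117 and Gzmb -0.082. Without the 2 deepest libraries Cd5 was 0.009 and Prf1 -0.204. With 1 library left out Cd3e ran from -0.013 to 0.298, Tcrg-C1 from -0.272 to 0.026, Lck from -0.05 to 0.161, Zap70 from -0.041 to 0.128, Cd5 from -0.08 to 0.119, Il2ra from -0.093 to 0.098, Klrg1 from -0.088 to 0.391 and Prf1 from -0.069 to 0.296. Depth limits Cd8b1, Tbx21, Eomes, Ncr1, Klrb1c and Gzma most, each with a library at 3 counts or fewer.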
